A study of Rattus norvegicus with 18 samples.

Results

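Osteoarthritis (OA) surgery was compared with sham surgery over all 18 of the 18 libraries of the series, with both time points in a single fit. The comparison set 9 OA libraries against 9 sham libraries, kept the week after surgery as a block, and estimated 1 shared effect of OA. The libraries hold RNA from rat knee synovial cells that were captured with CD11b/c magnetic beads. All rats were wild type male Sprague Dawley animals operated on at 12 weeks of age. In the OA groups the anterior cruciate ligament and the medial meniscotibial ligament were cut once the joint was open, and in the sham groups the joint was opened and nothing was cut. At 4 weeks each arm had 5 libraries from pools of 4 rats, and at 12 weeks each arm had 4 libraries from pools of 3 rats. The controls are therefore operated knees, and each library is a mean over several animals.

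The synovium lines the joint and holds macrophages, fibroblasts and blood vessels. Lining macrophages form a thin layer at the joint surface and carry the fractalkine receptor Cx3cr1, the lipid-sensing receptor Trem2 and the complement receptor Vsig4. Macrophages deeper in the tissue take up debris through scavenger receptors. Synovial fibroblasts make most of the collagen and proteoglycan of the tissue, and this matrix is rebuilt after joint injury.

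Recovered reads ranged from 4662344 to 18080503 per library (median 12884448), so that 3 reads, the limit that a count of 0 allows, stand for 0.166 to 0.643 CPM (reads of a gene scaled to equal library size). This limit covers counting error only. The lowest depth belongs to sham replicate 3 at 4 weeks, which stood apart from the other 17 libraries on the first principal component. Results are therefore also given without it. All 19 monocyte and macrophage core markers had reads in every library. All 18 fibroblast, 13 endothelial and 11 mural cell markers had reads in every library too, so RNA of stromal cells was present in the sorted samples. In bulk RNA, more cells of a type and more RNA per cell cannot be told apart.

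Of 14420 genes tested, 64 were called, which is 0.444% of genes tested. A call needed an absolute log2 fold change of at least 0.5 and an adjusted p-value under 0.05 (limma on log2 CPM, Benjamini-Hochberg adjustment). Of the called genes, 48 were higher in OA (0.333%) and 16 were lower (0.111%). The largest rise was that of the matrix glycoprotein Tnn at 5.06-fold. The macrophage receptors Msr1, Vsig4 and Cx3cr1 also rose, from 1.49-fold for Msr1 to 1.69-fold for Cx3cr1. Subunits of the epithelial sodium channel, the laminin chain Lamc3 and the chemokine Cxcl9 fell, by 1.42- to 1.62-fold. With no minimum on the fold, 146 genes passed the adjusted p (1.01%), 108 higher and 38 lower. With the quasi-likelihood test of edgeR, fitted to the same reads, 58 genes were called (0.402%), 42 higher (0.291%) and 16 lower, and 135 passed its adjusted p (0.936%). DESeq2 called 121 (0.839%), 79 higher (0.548%) and 42 lower (0.291%), and 485 passed its adjusted p (3.36%). Of these calls, 54 of edgeR and 60 of DESeq2 were among the 64. Without sham replicate 3 of 4 weeks, limma called 76 genes (0.527%), of which 54 were among the 64, and 298 passed the adjusted p (2.07%). The count rested on single libraries. It moved by more than 1.5 times without OA replicate 1, 3 or 4 of 4 weeks (36, 42 and 38 genes), without OA replicate 2, 3 or 4 of 12 weeks (42, 39 and 21 genes), and without sham replicate 2 or 4 of 4 weeks (32 and 116 genes). Of the 64 called genes, 20 were called in all 18 fits that left out 1 library, and none changed direction in any fit.

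**Figure D1:**
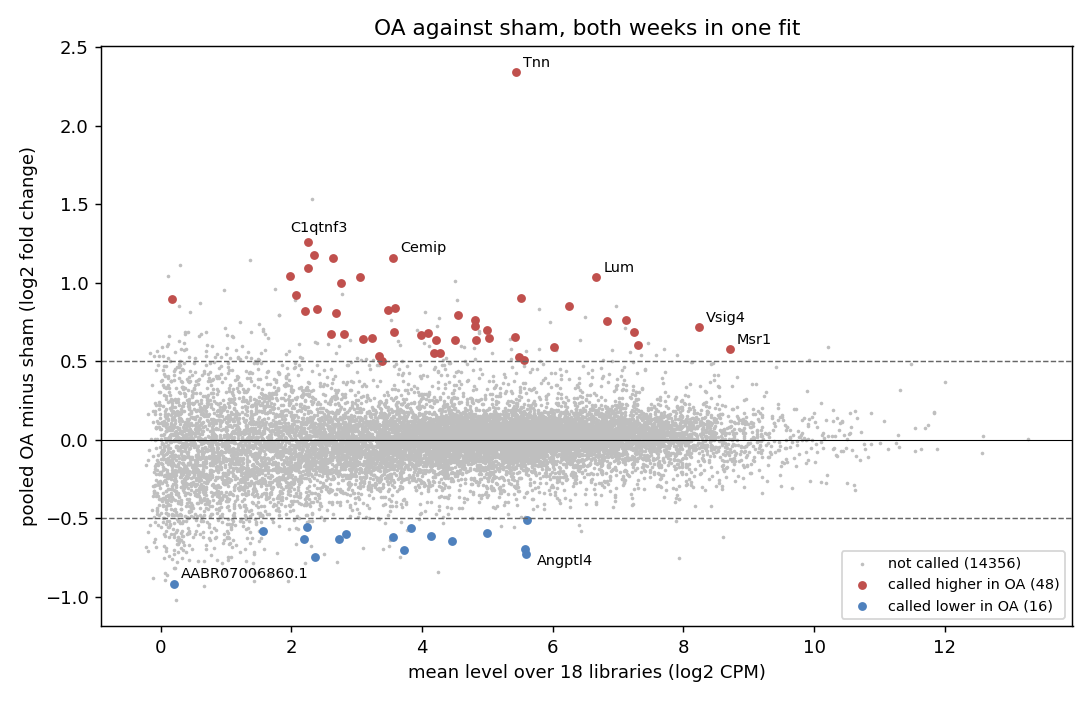
Pooled difference between OA and sham (y axis, log2 fold change) against the mean level over 18 libraries (x axis, log2 CPM), 1 point per gene tested. The 48 genes called higher (red) span the range of levels up to Msr1, Tnn lies furthest above 0 at 2.34, and the 16 genes called lower (blue) lie between -0.92 and -0.51, past the dashed lines at the fold minimum.

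Tnn, which encodes tenascin-N, a matrix glycoprotein of remodelling connective tissue, ranged over the OA libraries from 40.4 to 236 CPM (median 91.4). In sham libraries it ranged from 7.06 to 58.7 CPM (median 15.5). All but 1 of the OA libraries lay above every sham library, and the pooled log2 fold change was 2.34 ± 0.42 (SE, adjusted p = 0.0195, limma). Lum encodes lumican, a proteoglycan that organises collagen fibrils. Its OA libraries held 98.3 to 226 CPM (median 156) against 42.5 to 129 CPM (median 68.3) in sham. The groups overlapped, with 6 OA libraries above every sham library, and Lum rose 2.05-fold (adjusted p = 0.0203, limma). Postn, the matricellular protein periostin, ranged from 140 to 258 CPM in OA (median 170) and from 67.4 to 181 CPM in sham (median 113). It rose 1.70-fold (adjusted p = 0.0212, limma), with all 9 OA libraries above the sham median.

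Fap, a serine protease of activated fibroblasts, separated the groups without overlap. Its lowest OA library held 88.4 CPM and its highest sham library 88.0 CPM, with a sham median of 59.3 CPM. The rise was 1.81-fold (adjusted p = 0.0148, limma, exact permutation p = 0.000113, the smallest that 17640 arrangements within weeks allow). A gene with no overlap within either week always reaches this value, so it adds nothing to the separation. Egfl6, an EGF-repeat matrix protein, had a median of 7.69 CPM in OA (3.83 to 12.7) and of 2.71 CPM in sham (2.20 to 7.48). Cthrc1, which activated fibroblasts secrete, had a median of 8.29 CPM in OA (5.79 to 15.5) and of 4.81 CPM in sham (1.64 to 9.04). Both rose, at 2.26-fold (adjusted p = 0.0203) and 2.23-fold (adjusted p = 0.0222), and for both the groups overlapped. C1qtnf3, a secreted protein of the C1q and TNF superfamily, rose 2.39-fold (adjusted p = 0.0148), from a sham median of 2.84 CPM (1.27 to 5.56) to an OA median of 7.26 CPM (3.31 to 13.1).

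Of 42 elastic fibre, proteoglycan and other matrix genes tested, 4 were called higher (Lum, Vit, Cemip and Postn) and none lower. In that group 35 lay above 0, with a median log2 fold change of 0.35, beside 50.8% above 0 and a median of 0.0023 over all genes tested. Vit, the matrix protein vitrin, rose 1.79-fold with no overlap within either week, and its 9 OA libraries (10.1 to 25.2 CPM) overlapped the sham libraries (4.66 to 20.9 CPM) once the weeks were put together. Cemip, which breaks down hyaluronan, rose 2.23-fold, from a sham median of 7.97 CPM to an OA median of 21.3 CPM. Of 47 matrix proteases and inhibitors, 3 were called higher and none lower, and the median was 0.043 on the log2 scale. Adamts16, a secreted metalloprotease, held 4.97 to 11.2 CPM in OA (median 6.77) and 1.51 to 4.92 CPM in sham (median 3.12). Its groups did not overlap, and it rose 2.14-fold (adjusted p = 0.0189, limma). Mmp16, a membrane-bound matrix metalloproteinase, rose 1.90-fold, and Adamts14, which trims procollagen, rose 1.60-fold. Adamts14 was not called by edgeR (adjusted p = 0.0546) and was called in 5 of the 18 fits that left out a library, and Cemip likewise in 5.

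Most fibroblast markers lay above 0 as well. Their summed level ranged from 7158 to 10352 CPM in OA (median 8219) and from 5033 to 10700 CPM in sham (median 5932). Of the 18 markers tested, 12 lay above 0, the median log2 fold change was 0.17 and 1 (Lum) was called. When the mean of the 17 uncalled fibroblast markers was added to the fit as a covariate, a step chosen after the data were seen, the log2 fold change of Tnn went from 2.34 to 1.83, that of Lum from 1.03 to 0.65 and that of Vit from 0.84 to 0.50. The median over the 42 matrix genes went from 0.35 to 0.12. Tnn (adjusted p = 0.0365), Lum (adjusted p = 0.0255), Fap (adjusted p = 0.0216) and Adamts16 (adjusted p = 0.0339) were still called in limma with that covariate, while Vit (adjusted p = 0.0633), Cemip (adjusted p = 0.0914) and Mmp16 (adjusted p = 0.0558) were not. That fit called 87 genes, of which 40 were among the 64.

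**Figure D2:**
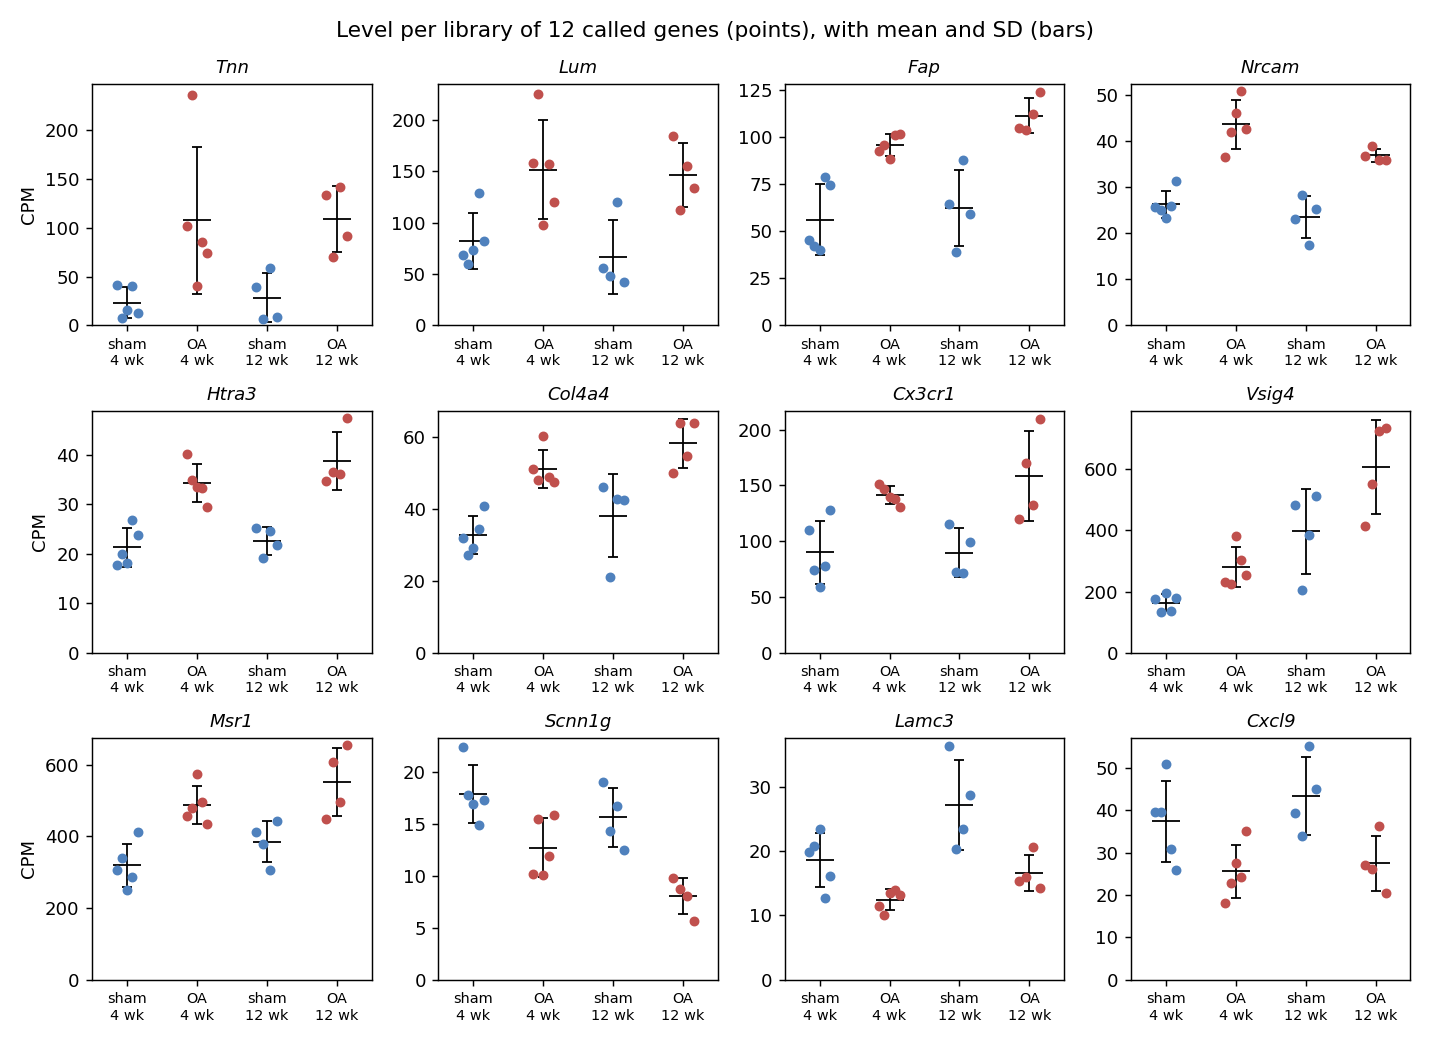
Level in CPM (y axis, linear, from 0) of 12 called genes in each library (points, sham blue and OA red) by group (x axis), with the group mean and SD (black). Fap, Nrcam, Htra3 and Col4a4 do not overlap between OA and sham, Vsig4 is higher at 12 than at 4 weeks in both arms, and Scnn1g, Lamc3 and Cxcl9 have lower means in OA at both weeks.

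**Figure D3:**
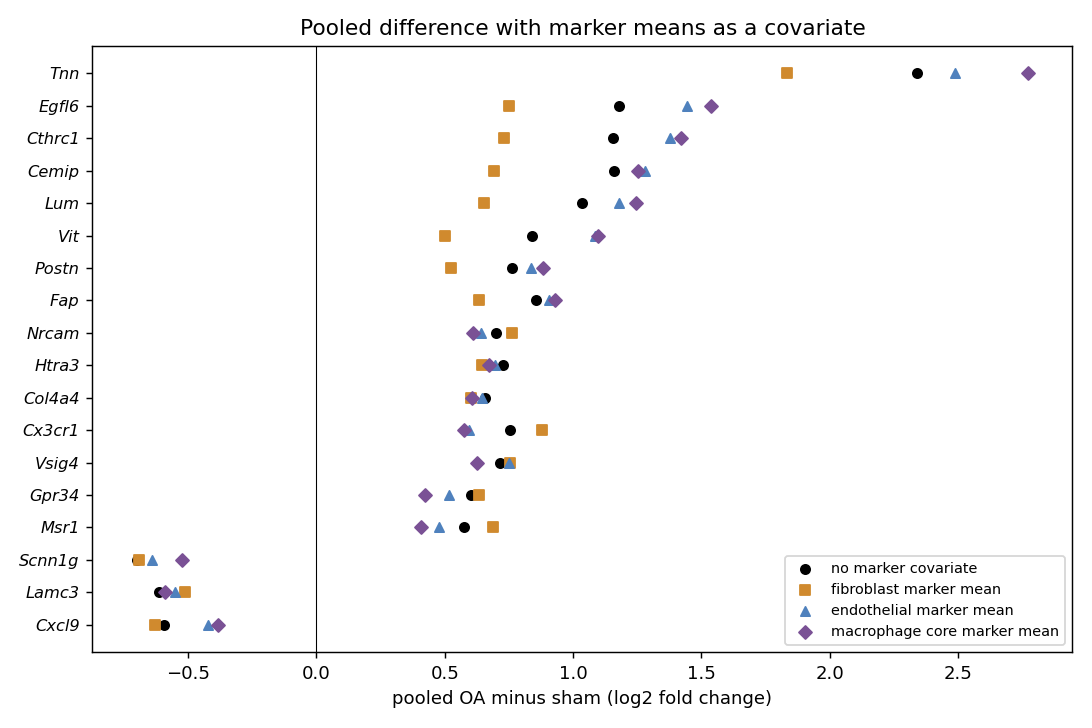
Pooled log2 fold change (x axis) of 18 called genes (y axis) with no marker covariate (black) and with the mean level of fibroblast, endothelial or macrophage core markers per library as a covariate. Tnn moves from 2.34 to 1.83 with the fibroblast mean, whereas Cx3cr1 moves from 0.75 to 0.88 with the fibroblast mean and to 0.57, where it is no longer called, with the macrophage core mean.

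The smallest adjusted p-values belonged to Nrcam and Htra3. Nrcam, a neuronal cell adhesion molecule of the immunoglobulin family, held 35.9 to 50.8 CPM in OA (median 39.0) and 17.5 to 31.4 CPM in sham (median 25.3). Htra3, a secreted serine protease, held 29.5 to 47.4 CPM in OA (median 34.8) and 17.7 to 26.8 CPM in sham (median 21.7). Neither gene overlapped between the groups. Nrcam rose 1.62-fold (adjusted p = 0.000738) and Htra3 rose 1.66-fold (adjusted p = 0.000759, limma), and both were called in all 18 fits that left out a library. Both were also called with the fibroblast mean as a covariate, at log2 fold changes of 0.76 and 0.65. Lrrn4cl, a leucine-rich repeat gene, rose 1.42-fold (adjusted p = 0.00279) with 46.5 to 68.9 CPM in OA and 31.6 to 45.5 CPM in sham. Its log2 fold change was 0.49 without sham replicate 3 of 4 weeks, under the fold minimum. In all, 8 called genes had no overlap between the 9 OA and the 9 sham libraries, against 13 of all genes tested (0.0902%).

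Of 38 collagen genes tested, 3 were called higher (Col4a3, Col4a4 and Col8a2), none was lower, and the median log2 fold change was 0.074. The median was 0.11 without sham replicate 3 of 4 weeks and -0.090 with the fibroblast mean as a covariate. Col4a3 and Col4a4 encode the alpha 3 and alpha 4 chains of type IV collagen, which assemble into the same network. Col4a4 held 47.6 to 64.0 CPM in OA (median 51.0) and 21.1 to 46.2 CPM in sham (median 34.6). Col4a3 held 17.6 to 23.3 CPM in OA (median 20.2) and 6.75 to 17.5 CPM in sham (median 12.9). Neither overlapped between the groups. The rises were 1.58-fold for Col4a4 (adjusted p = 0.0195) and 1.59-fold for Col4a3 (adjusted p = 0.0203, limma), and both were called in all 18 fits that left out a library. Col8a2 rose 1.60-fold but was called in 4 of those fits and not by edgeR (adjusted p = 0.0588).

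Col4a3 and Col4a4 lie head to head and are read in opposite directions from starts that are 413 bases apart in the RefSeq annotation of GRCr8. The 250 bases before the Col4a3 start (chr9:91323740-91323989, GRCr8, + strand, RefSeq) are shown because this stretch lies between the starts of 2 genes that rose together, and capitals mark the 88 bases that also lie within the 250 bases before the Col4a4 start on the other strand.
Col4a3 upstream: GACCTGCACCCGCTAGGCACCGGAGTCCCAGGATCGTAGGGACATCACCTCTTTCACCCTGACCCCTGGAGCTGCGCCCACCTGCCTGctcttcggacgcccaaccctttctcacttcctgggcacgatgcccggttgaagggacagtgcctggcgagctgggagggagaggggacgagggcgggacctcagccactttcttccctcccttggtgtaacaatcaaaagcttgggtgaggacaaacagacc
The deposited values were counted on another assembly, Rnor_6.0. Of the called genes, 59 were found in this annotation, and only 2 pairs of them were neighbours with at most 1 protein-coding gene between them, the collagen pair and the sodium channel pair described below.

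Laminins join type IV collagen in basement membranes. Lamc3, which encodes a gamma chain, held 9.99 to 20.6 CPM in OA (median 13.9) and 12.7 to 36.2 CPM in sham (median 20.8). Its groups overlapped, and it was 1.53-fold lower (adjusted p = 0.0212, limma). Endothelial cells, which sit on a basement membrane, had 13 markers tested, none called and 11 of them below 0. Their summed level ranged from 3879 to 5861 CPM in OA (median 4598) and from 4475 to 6544 CPM in sham (median 4984). With the endothelial mean as a covariate the log2 fold change of Lamc3 was -0.55 (adjusted p = 0.0527, limma) and that of Col4a4 was 0.64 (adjusted p = 0.0334). With the macrophage core mean, Col4a4 was at 0.60 (adjusted p = 0.0862, limma) and Col4a3 at 0.61 (adjusted p = 0.088), and neither was called. Both were called with the fibroblast mean (adjusted p = 0.0359 and 0.0375, limma).

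Of 11 lining macrophage genes tested, 3 were called higher (Cx3cr1, Vsig4 and Rspo1) and none lower, 7 lay above 0 and the median log2 fold change was 0.23. The other 4 lay below 0. Over all genes tested, 0.333% were called higher, 0.111% were called lower and 50.8% lay above 0. These are the shares to set beside the other lists too. Cx3cr1 held 120 to 209 CPM in OA (median 140) and 58.9 to 128 CPM in sham (median 78.1). Its groups did not overlap within either week, and it rose 1.69-fold (adjusted p = 0.0195, limma, exact permutation p = 0.000113, which such separation fixes). Vsig4 differed between the weeks as well, with 224 to 383 CPM in OA and 133 to 196 CPM in sham at 4 weeks, and with 415 to 736 CPM in OA and 206 to 513 CPM in sham at 12 weeks. It rose 1.64-fold (adjusted p = 0.0382), with no overlap at 4 weeks and an overlap at 12 weeks, and was called in 11 of 18 fits that left out a library. Trem2 held 272 to 440 CPM in OA (median 331) and 186 to 296 CPM in sham (median 223). It passed the adjusted p (0.0195, limma) and missed the fold minimum, at a log2 fold change of 0.49.

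Of 10 scavenger receptors of resident sublining macrophages, 1 was called higher (Msr1), 9 lay above 0 and the median was 0.15. Msr1, the class A scavenger receptor, held 434 to 654 CPM in OA (median 495) and 250 to 444 CPM in sham (median 339). It rose 1.49-fold (adjusted p = 0.0148), with no overlap within either week, and was called in all 18 fits that left out a library. Lyve1, a hyaluronan receptor named after its values were seen (log2 fold change 0.46, adjusted p = 0.037), and the scavenger receptor Colec12 (0.34, adjusted p = 0.033) passed the adjusted p but not the fold minimum. Further called genes of myeloid cells were named after their values were seen. Gpr34, a lysophosphatidylserine receptor, held 142 to 268 CPM in OA (median 201) and 92.0 to 178 CPM in sham (median 124), and rose 1.52-fold. Slc2a5, a fructose transporter, rose 1.69-fold, and Blnk, an adaptor of immune receptor signalling, rose 1.44-fold. The log2 fold change of Blnk was 0.44 without sham replicate 3 of 4 weeks, under the fold minimum. Of the 19 monocyte and macrophage core markers, 18 lay above 0 with a median of 0.13 and none was called. Their summed level ranged from 13860 to 19980 CPM in OA (median 16525) and from 13593 to 19010 CPM in sham (median 14677). With their mean as a covariate, the log2 fold change was 0.57 for Cx3cr1 (adjusted p = 0.088, limma), 0.41 for Msr1 (adjusted p = 0.0438), 0.63 for Vsig4 (adjusted p = 0.186) and 0.42 for Gpr34 (adjusted p = 0.109). With the fibroblast mean as a covariate the values were 0.88, 0.69, 0.75 and 0.63, and all 4 were called.

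Sequences before the starts of 3 of these receptor genes are shown because the genes rose together. PU.1, the lineage factor of macrophages, binds DNA around a core of the letters GAGGAA. These letters or their complement TTCCTC were searched for on both strands in the 250 bases before each start (RefSeq, GRCr8), each written in the direction of its gene on the - strand, with matches in capitals.
Gpr34 (chrX:11785837-11786086): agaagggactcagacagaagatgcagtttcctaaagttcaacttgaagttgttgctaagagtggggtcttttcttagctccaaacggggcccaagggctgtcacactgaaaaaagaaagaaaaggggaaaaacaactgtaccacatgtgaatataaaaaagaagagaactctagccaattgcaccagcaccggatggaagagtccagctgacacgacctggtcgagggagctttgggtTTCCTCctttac
Cx3cr1 (chr8:128677067-128677316): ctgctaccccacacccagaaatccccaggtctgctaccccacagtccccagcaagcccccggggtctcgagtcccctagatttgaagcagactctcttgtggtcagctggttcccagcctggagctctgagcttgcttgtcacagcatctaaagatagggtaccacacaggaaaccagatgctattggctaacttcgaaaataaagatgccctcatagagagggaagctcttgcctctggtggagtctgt
Vsig4 (chrX:65179709-65179958): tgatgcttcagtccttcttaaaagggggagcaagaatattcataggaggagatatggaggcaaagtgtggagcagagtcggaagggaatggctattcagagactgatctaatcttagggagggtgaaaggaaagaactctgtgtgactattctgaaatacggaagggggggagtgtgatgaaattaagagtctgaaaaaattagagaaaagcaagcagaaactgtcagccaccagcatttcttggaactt
Gpr34 had 1 match and Cx3cr1 and Vsig4 had 0. Of the 42 called genes with such a window, 11 held the letters (26.2%), beside 23.3% of all 33469 windows, so the called genes were close to the share of all genes. A match describes these letters in these windows and is not a binding site.

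The genes that fell were fewer, 16 of the 64. Scnn1g and Scnn1b encode the gamma and beta subunits of the epithelial sodium channel and are direct neighbours in the genome. Scnn1g held 5.70 to 15.9 CPM in OA (median 10.1) and 12.5 to 22.5 CPM in sham (median 16.9), with 7 OA libraries below every sham library. It was 1.62-fold lower (adjusted p = 0.0199, limma) and was called in all 18 fits that left out a library. Scnn1b, named after its values were seen as the neighbour of Scnn1g, held 32.4 to 51.9 CPM in OA (median 41.2) and 46.1 to 84.0 CPM in sham (median 55.0). It was 1.42-fold lower (adjusted p = 0.0212, limma), close to the fold minimum at a log2 fold change of -0.51. Without sham replicate 3 of 4 weeks it was at -0.44, short of that minimum. Ahrr, a repressor of the aryl hydrocarbon receptor, held 2.89 to 6.02 CPM in OA (median 3.93) and 5.02 to 10.7 CPM in sham (median 5.97). All but 1 of its OA libraries lay below every sham library, and it was 1.68-fold lower (adjusted p = 0.0293, limma). With the macrophage core mean as a covariate, the log2 fold change was -0.52 for Scnn1g (adjusted p = 0.0975, limma), -0.34 for Scnn1b (adjusted p = 0.126) and -0.64 for Ahrr (adjusted p = 0.153). None of these was then called. Of the 16 genes that fell, Gria2 alone kept its call in that fit, at -0.77 (adjusted p = 0.0315, limma).

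Angptl4, an inhibitor of lipoprotein lipase, held 21.3 to 66.0 CPM in OA (median 34.3) and 29.1 to 110 CPM in sham (median 74.1). It was 1.66-fold lower (adjusted p = 0.0442), and its groups overlapped. Gria2, an AMPA-type glutamate receptor subunit, held 8.28 to 16.5 CPM in OA and 11.7 to 23.5 CPM in sham at 4 weeks, and 34.2 to 37.5 CPM in OA and 45.5 to 63.1 CPM in sham at 12 weeks. It was 1.57-fold lower (adjusted p = 0.0222, limma), with overlap at 4 weeks and none at 12 weeks. Among called genes, the uncharacterised AABR07006860.1 had the lowest log2 fold change, -0.92 (adjusted p = 0.0468), at no more than 2.93 CPM in any library. Cmahp, named for CMP-N-acetylneuraminate hydroxylase, was 1.54-fold lower with no overlap within either week. Pmfbp1 (1.62-fold lower), Pbld1 (1.55-fold) and the aldo-keto reductase Akr1c19 (1.55-fold) fell with overlapping groups. Of the 18 fits that left out a library, Pmfbp1 was called in 5, Pbld1 in 6 and Akr1c19 in 7. Angptl4 and AABR07006860.1 were each called in 5 of those fits. Mybpc1, a myosin-binding protein, was the only one of 22 skeletal muscle markers called, 1.48-fold lower, while 12 of the 22 lay above 0. Adipocyte markers lay lower in OA as well. Their summed level ranged from 1162 to 1321 CPM in OA and from 1323 to 2000 CPM in sham, 5 of 6 tested lay below 0 and none was called. The mean log2 CPM of those tested overlapped, at 5.62 to 5.88 in OA and 5.73 to 6.60 in sham. Of the 13 adipocyte markers in the tables, 4 had 0 reads in some library. The marker with the largest test statistic was Lpl, the lipoprotein lipase, at a log2 fold change of -0.52 (adjusted p = 0.0593, limma).

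Of 27 chemokines and receptors tested, 2 were called higher (Cxcl14 and Cx3cr1) and 1 lower (Cxcl9), with a median log2 fold change of -0.071, or -0.12 without sham replicate 3 of 4 weeks and 0.0091 with the fibroblast mean as a covariate. Cxcl14, a chemokine made by stromal and epithelial cells, held 6.12 to 23.4 CPM in OA (median 11.8) and 3.04 to 9.83 CPM in sham (median 4.74). It rose 2.06-fold, but at an adjusted p of 0.0498, and it was not called by edgeR (adjusted p = 0.0549). Cxcl9, an interferon-induced ligand of the receptor Cxcr3, held 18.1 to 36.2 CPM in OA (median 26.1) and 25.9 to 55.2 CPM in sham (median 39.5). It was 1.51-fold lower at an adjusted p of 0.0498 in limma, and edgeR gave 0.0527. Both were called in 4 of the 18 fits that left out a library. Neither was called without sham replicate 3 of 4 weeks (adjusted p = 0.0505 for Cxcl14 and 0.0516 for Cxcl9, limma).

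Interferon response genes lay lower in OA without any called. Of 24 tested, 23 lay below 0, the median log2 fold change was -0.23 and 1 passed the adjusted p, while 7098 of all 14420 genes tested lay below 0. Cxcl10, another Cxcr3 ligand, held 17.8 to 48.2 CPM in OA (median 23.2) and 20.6 to 64.7 CPM in sham (median 38.5). Its log2 fold change was -0.50 (adjusted p = 0.0222, limma), just short of the fold minimum, and edgeR called it. Uba7, which is outside that list and encodes the enzyme that activates the interferon-induced modifier Isg15, passed the adjusted p at 0.0148 and a log2 fold change of -0.33, with 31.2 to 38.6 CPM in OA and 38.4 to 49.8 CPM in sham. The interferon median was -0.25 at 4 weeks, -0.19 at 12 weeks and -0.15 without sham replicate 3 of 4 weeks, where 4 of the 24 lay above 0. Of 15 inflammatory cytokines, none was called, and the median was -0.13, or -0.22 without that library. Tnfsf10, the death ligand TRAIL (log2 fold change -0.37, adjusted p = 0.0237), and Il18 (0.45, adjusted p = 0.0315) passed the adjusted p in opposite directions.

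Of 27 Wnt and R-spondin genes, 2 were called higher (Rspo2 and Rspo1) and none lower, and the median was -0.024, which turned to 0.013 without sham replicate 3 of 4 weeks. R-spondins strengthen Wnt signals at the cell surface. Rspo2 held 3.32 to 8.54 CPM in OA (median 4.97) and at most 6.15 CPM in sham (median 2.68), and rose 2.06-fold (adjusted p = 0.0331). Rspo1 held 17.1 to 29.4 CPM in OA (median 23.2) and 11.2 to 23.1 CPM in sham (median 15.5), and rose 1.47-fold (adjusted p = 0.0364, limma). The groups overlapped for both, and Rspo2 was called in 12 and Rspo1 in 9 of the 18 fits that left out a library. With the fibroblast mean as a covariate, Rspo2 was at 0.74 (adjusted p = 0.0772) and Rspo1 at 0.61 (adjusted p = 0.0365, limma). Of 31 TGF beta signalling genes, none was called. The receptor Tgfbr1 had the largest test statistic of them, at a log2 fold change of 0.54 (adjusted p = 0.0741).

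Among other macrophage gene groups, no member of the following was called in either direction in limma. MHC class II presentation had 14 of 16 genes above 0 (median 0.091), lysosome acidification and cathepsins 25 of 31 (median 0.11), Fc and C-type lectin receptors 15 of 19 (median 0.17), and prostaglandin and leukotriene enzymes 14 of 16 (median 0.10). With the macrophage core mean as a covariate these medians were, in that order, 0.017, 0.065, 0.039 and 0.061. Members that passed the adjusted p below the fold minimum were the cathepsin Ctsl (log2 fold change 0.21, adjusted p = 0.0416), Lta4h, which makes leukotriene B4 (0.32, adjusted p = 0.0203), Tbxas1, the thromboxane synthase (0.45, adjusted p = 0.0222), and the receptor Tlr2 (0.41, adjusted p = 0.0212), 1 of 17 Toll-like receptor genes. Of 22 complement genes, 15 lay above 0 and only Vsig4 was called. The lipid-associated macrophage group had 6 of 15 above 0, with Trem2 at 0.49 and Lpl at -0.52. Without sham replicate 3 of 4 weeks the median of the MHC class II group was 0.14 and that of the complement genes went from 0.12 to 0.19. Respiratory chain genes had 65 of 78 above 0 at a median of 0.055, and 76 of 78 at a median of 0.11 without that library. The cell cycle and DNA replication genes had 37 of 44 below 0 at a median of -0.14. The cell cycle median was -0.023 at 4 weeks and -0.27 at 12 weeks, and with the fibroblast mean as a covariate it was 0.048. All 14 tested eosinophil and mast cell markers lay below 0 (median -0.33) and none was called. Their summed level ranged from 198 to 366 CPM in OA and from 209 to 492 CPM in sham, and 2 of the 17 markers in the tables (Prg2 and Gata1) had 0 reads in some or all libraries. Their part in the other differences was not tested.

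**Figure D4:**
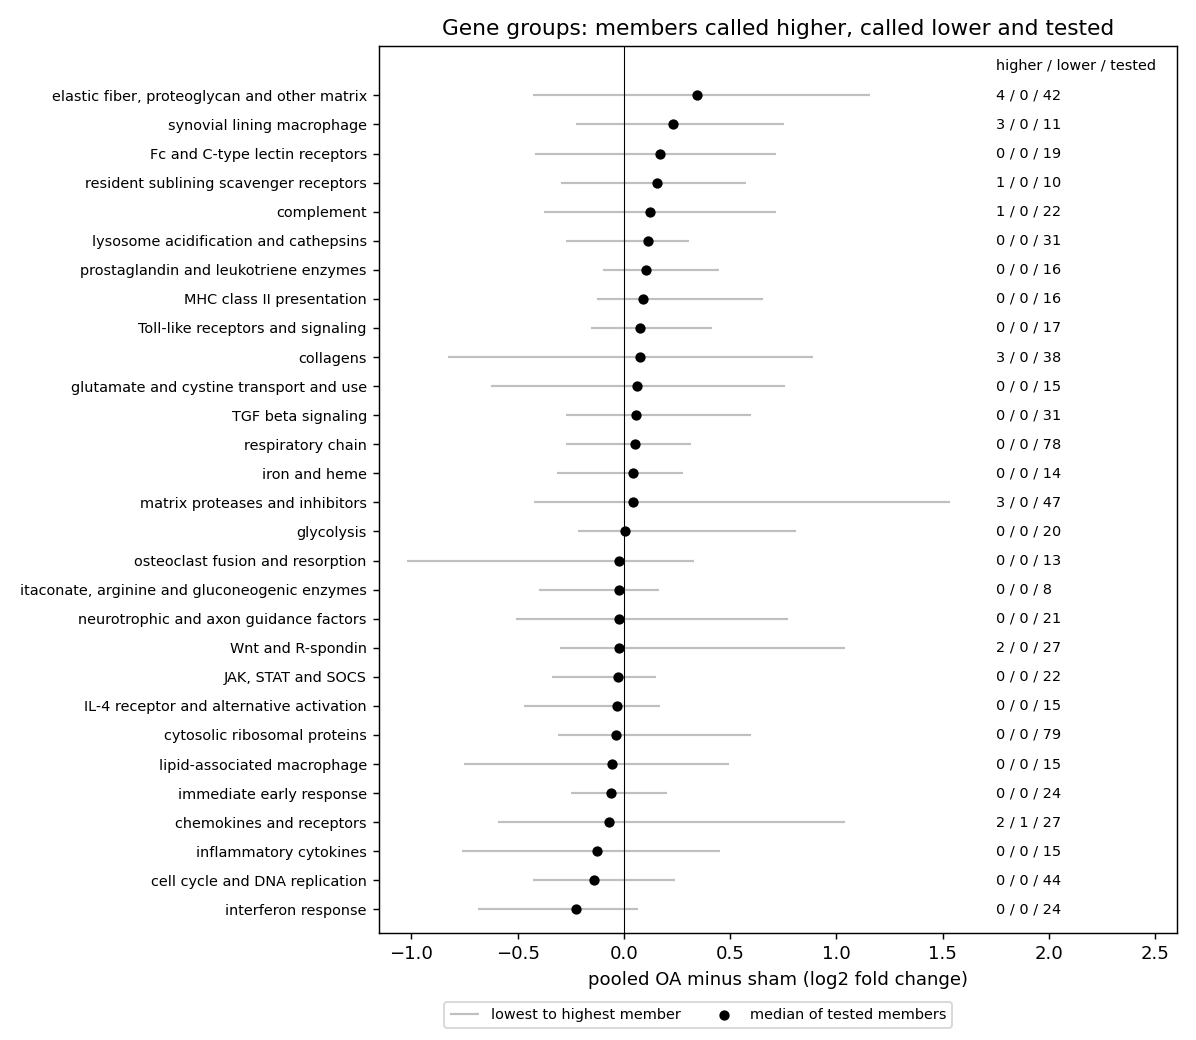
Median pooled log2 fold change (x axis, points) with the lowest and highest member (grey lines) of 29 gene groups (y axis), and beside each the numbers of members called higher, called lower and tested. The matrix group has the highest median at 0.35 with 4 of 42 called, and the interferon group the lowest at -0.23 with none of 24 called.

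The integrin genes of the CD11b/c sort and the transcription factor genes Stat3 and Stat6 were not called. Itgam, the CD11b gene, held 312 to 452 CPM in OA (median 356) and 204 to 574 CPM in sham (median 413), with a 95% interval of the log2 fold change from -0.31 to 0.31. Stat3 had a 95% interval of -0.14 to 0.06 and Stat6 of -0.06 to 0.11. Itgax, the CD11c gene, was at -0.33 ± 0.28 (SE, adjusted p = 0.605, limma). Of 22 JAK, STAT and SOCS genes, none was called, and Socs2, an inhibitor of cytokine signalling, had the largest test statistic (log2 fold change -0.34, adjusted p = 0.0991). Of 15 genes of the IL-4 receptor and alternative activation, none was called, and the lipid sensor Pparg was at -0.42 (adjusted p = 0.0576).

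Genes that the study's text names from its own comparisons within single weeks were also looked up. They were chosen on these libraries, so their counts are no independent evidence of direction. Of 9 named at 4 weeks, 5 could be tested here and C1qtnf3 and Rspo2 were called higher. Of 9 named at 12 weeks, 8 could be tested and Adamts16, Mmp16, Vit, Cemip and Ptprv were called higher. Ptprv, a receptor-like tyrosine phosphatase, held 5.61 to 15.1 CPM in OA and 2.14 to 10.1 CPM in sham, and rose 2.00-fold (adjusted p = 0.0372, limma). The glutamate transporter Slc1a3 was at 0.76 ± 0.22 (adjusted p = 0.0965), with 1.11 at 4 weeks and 0.32 at 12 weeks. At 4 weeks its OA libraries held 13.9 to 20.7 CPM and its sham libraries 6.55 to 10.9 CPM, and at 12 weeks the groups overlapped. The collagenase Mmp13 had a large and uncertain difference, 1.53 ± 0.78 (adjusted p = 0.362). At 4 weeks a single OA library held 110 CPM, and at 12 weeks the values were 2.33 to 24.9 CPM in OA and 0.252 to 2.84 CPM in sham. Fbn2, a fibrillin of elastic microfibrils, was at 0.89 ± 0.25 (adjusted p = 0.0848) and passed at 0.0415 (limma) without sham replicate 3 of 4 weeks. Rnase2, Sctr and Myh7 were not called (adjusted p = 0.554, 0.249 and 0.655). Acod1, Fbp1, Ocstamp, Cdh26 and Tnni1 had a mean below 10 normalized reads at 1 or both weeks and were not tested.

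The shared effect was compared with the effect at each week in the same model. No gene was called at 4 weeks alone (smallest adjusted p = 0.0544, 1379 genes at an unadjusted p under 0.05, 9.56%) or at 12 weeks alone (smallest adjusted p = 0.0525, 1388 genes, 9.63%) in limma. The study itself called genes at each week with DESeq2, at the same fold and adjusted p limits. DESeq2 was fitted here to both weeks together only, so its count within a week was not tested. For the difference between the weeks, 0 genes passed the adjusted p (smallest 0.962, 432 genes at an unadjusted p under 0.05), so a different size at each week was not detectable for any gene. All 64 called genes had the same direction at both weeks, which the choice of genes by their pooled test favours. Over all genes tested, 60.1% had the same direction at both weeks, and the correlation of the week effects across genes, which are not independent replicates and share no library here, was r = 0.226. Of 340 genes with an unadjusted p under 0.05 at both weeks, 333 had the same direction. Among the called genes, 46 had the larger absolute difference at 12 weeks, where each arm had fewer libraries. Over all 14420 genes tested, 7897 did. Adamts16 was at 0.72 at 4 weeks and 1.56 at 12 weeks (unadjusted p of the difference 0.0278, adjusted 0.962). Tnn was at 2.27 and 2.43, Cx3cr1 at 0.71 and 0.81, and Col4a4 at 0.65 and 0.66. In 17 called genes the groups did not overlap within either week, 15 higher and 2 lower, beside 37 of all genes tested (0.257%), 29 higher (0.201%) and 8 lower (0.0555%).

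**Figure D5:**
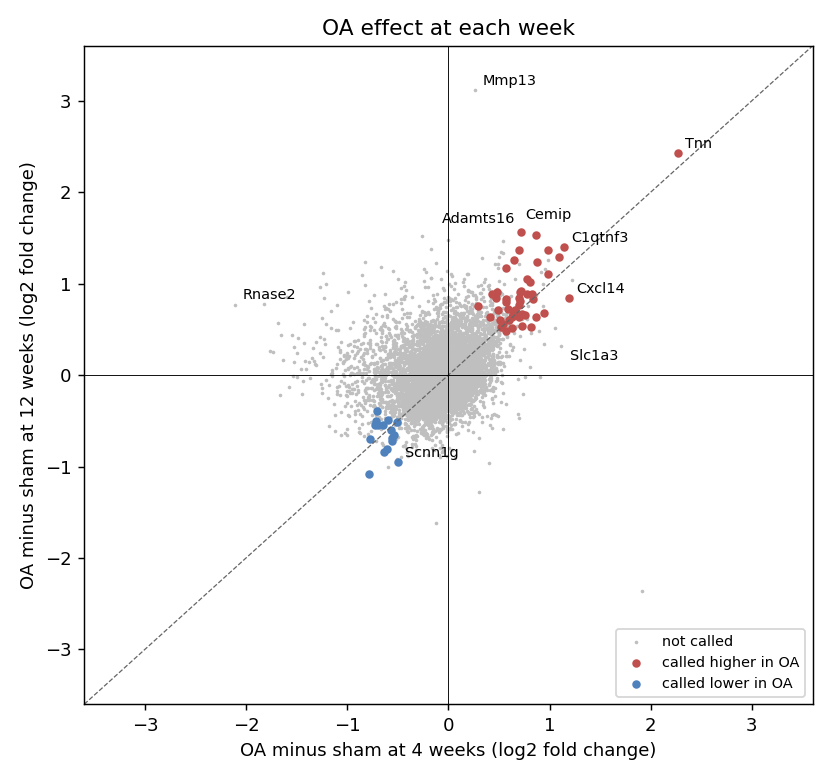
Difference between OA and sham at 4 weeks (x axis) and at 12 weeks (y axis), both as log2 fold change, 1 point per gene tested, with the dashed line of equal effects. The 64 called genes (red higher, blue lower) have the same direction at both weeks, while Rnase2 and Mmp13, which were not called, lie far from the dashed line.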

How the data were processed

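RNA was sequenced from CD11b/c-sorted synovial cells of rat knees taken 4 or 12 weeks after either surgery. Samples were grouped by surgery and week from the sample labels. The authors prepared stranded total RNA libraries with ribosomal RNA removed, checked reads with fastp 0.20.0, aligned them to Rnor_6.0 with STAR 2.7.6a, dropped duplicate alignments (Sambamba), used featureCounts 2.0.0 for gene counts and divided these by DESeq2 1.24.0 size factors estimated within each week. Whether counting used strand is not given in the sources used here. The authors deposited these normalized counts, treated here as a signal, for 30643 genes. The deposited tables also hold the authors' own fold changes and p-values, which were not used.

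In every library 100% of values were whole multiples of a single read within 0.05, so whole reads were recovered and both tables were joined by gene. They were scaled together by TMM and turned into log2 CPM with a prior count of 2. Fold changes on this scale are understated where levels are low. The test covered genes whose mean reached 10 normalized reads in each table, and was run in limma 3.58.1 (R 4.3.3) with a mean-variance trend and the week as a block. Genes were called at an absolute log2 fold change of at least 0.5 and an adjusted p under 0.05. Single genes were checked by a two-sided exact permutation test within weeks. The p-values measure the spread between pools of rats. No 2 libraries of a group agreed within counting noise (chi-square divided by its degrees of freedom, 5.45 to 35.6 over 32 pairs). Alternatives were DESeq2 size factors, the deposited scaling, other prior counts and filters, edgeR 4.0.16, DESeq2 1.42.0, a replicate block, quality weights, 1 surrogate variable (sva 3.50.0), no week term, single weeks and leaving out libraries. Marker means as covariates were added after the data were seen. In data simulated for this comparison with 200 of 14420 genes changed, limma recovered 64.2% of genes changed 1.5-fold and 95.5% of those changed 2-fold, with 1 false call. The simulation drew each gene independently around its week mean, in a single draw with no library standing apart. These rates need not hold for the real libraries.

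The comparison, the 45 gene lists and the tests were chosen with earlier results of these data known. Genes were named by rule: the called genes that rose most (up to 12) or fell most (up to 12), the 10 smallest adjusted p-values, genes the study's text names, Itgam, Itgax, Stat3 and Stat6, called list members and the 2 members of a described list with the largest test statistic. Some genes that meet this rule are not reported here. Of gene symbols, 2363 rows shared one with another row and 356 had none. Python 3.11.15 with pandas 2.3.3 and scipy 1.17.1 was used.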

Additional observations from a re-analysis of the deposited data

Results flagged for a closer look

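Values were compared within each group of 4 or 5 libraries by Dixon's test at the 95% level, for read depth, the mitochondrial share, the 24 called genes with the largest rise or fall and the 14 marker lists. Of 160 such sets 12 held a library that stood apart, where chance gives about 1 in 20. Sham replicate 3 of 12 weeks was high for Egfl6 (7.48 CPM, the others 2.20 to 2.71), Cthrc1 (6.81 CPM, the others 1.64 to 2.05), Ahrr (8.71 CPM, the others 5.66 to 5.99) and the mean of the endothelial markers (8.07 log2 CPM, the others 7.58 to 7.62). OA replicate 3 of 4 weeks was low for Egfl6 (3.83 CPM, the others 7.51 to 8.96) and high for Gria2 (16.5 CPM, the others 8.28 to 8.96). Sham replicate 4 of 4 weeks was high for Cxcl14 (9.83 CPM, the others 3.04 to 4.74). OA replicate 4 of 12 weeks was low for Cmahp (8.92 CPM, the others 11.6 to 12.1) and for the mean of the Schwann cell and nerve markers (4.53 log2 CPM, the others 4.82 to 4.86). OA replicate 5 of 4 weeks was low for the mean of the macrophage core markers (8.54 log2 CPM, the others 8.82 to 8.92) and high for that of the adipocyte markers (5.88 log2 CPM, the others 5.71 to 5.75). OA replicate 4 of 4 weeks was low for the mean of the cartilage and osteoblast markers (2.00 log2 CPM, the others 2.47 to 2.65). Why these libraries differed was not tested.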

How the results depend on the processing

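Beside 64 called genes, the count was 62 with DESeq2 size factors, 68 on the deposited scaling, 63 and 62 with prior counts of 0.5 and 5, 60 at a mean of at least 50 and 58 with edgeR. It moved by more than 1.5 times with every gene that had a read (36, over more genes tested), DESeq2 (121), sample quality weights (119), 1 surrogate variable (106), no week term (25), no fold-change minimum (146), the macrophage core mean as a covariate (30), both sham replicates 3 left out (108) and DESeq2 without sham replicate 3 of 4 weeks (126). In limma it was 0 at 4 weeks and 0 at 12 weeks alone, where fewer libraries enter each contrast, and 85 with the endothelial mean. Leaving out 1 library gave 21 to 116. The causes were not tested otherwise. Of 45 list medians, 44 kept their sign over TMM, DESeq2 factors, the deposited scaling, edgeR and DESeq2, the exception being neutrophil markers. The sign turned for 5 lists without sham replicate 3 of 4 weeks (B and plasma cell, cartilage and osteoblast, erythroid, Wnt and R-spondin, ribosomal), for 7 with the fibroblast mean, 7 with the endothelial mean and 4 with the macrophage mean, and was the same at both weeks for 31. The median over all genes stayed within 0.012 of 0.

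Same-numbered OA and sham libraries mostly did not deviate together (correlations from -0.0369 to 0.324, over 0.1 in 1 of 9 pairs). The highest belonged to replicate 3 of 12 weeks, and 1 of 9 OA libraries correlated best with its own number. Whether same-numbered libraries shared a processing step was not tested. With the number as a replicate block limma called 78 genes, 53 of them among the 64.

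No called gene reversed. Differences near 0 did. The difference for the gene Itgam was -0.0014 with DESeq2 size factors, -3.7e-06 with a prior count of 5, -0.012 at a mean of at least 50, -0.0423 and -0.0439 with edgeR and DESeq2, -0.13 with quality weights, -0.085 with the surrogate variable, -0.025 at 4 weeks, -0.11 to 0.079 when 1 library was left out, -0.19 without both sham replicates 3, -0.12 and -0.13 with edgeR and DESeq2 without sham replicate 3 of 4 weeks, and -0.23 and -0.19 with the endothelial and macrophage means. For the gene Stat3 it was 0.020 with the macrophage mean, and for the gene Stat6 -0.00699 and -0.024 with the endothelial and macrophage means. At 12 weeks alone the gene Rnase2 was at 0.77 and the gene Itgax at 0.28, and at 4 weeks alone the gene Myh7 was at -0.20.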

Other observations

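Of the 64 called genes, 20 were members of a written list. Among the others, named after their values were seen, Prrx2, a homeobox factor of mesenchymal cells, rose 1.77-fold (adjusted p = 0.0315, limma), Spon1, a secreted matrix protein, rose 1.74-fold (adjusted p = 0.0433), Pmepa1, a TGF beta target and inhibitor, rose 1.57-fold (adjusted p = 0.033), and Lpar1, a lysophosphatidic acid receptor, rose 1.55-fold (adjusted p = 0.0485). Of the 18 fits that left out a library, Prrx2 and Pmepa1 were each called in 10, Spon1 in 6 and Lpar1 in 4. With the fibroblast mean as a covariate, Prrx2 (adjusted p = 0.0600, limma), Spon1 (adjusted p = 0.0938), Pmepa1 (adjusted p = 0.0585) and Lpar1 (adjusted p = 0.0823) were not called. Kcnt2, a potassium channel subunit, rose 1.61-fold (adjusted p = 0.025) with no overlap within either week, at 158 to 242 CPM in OA and 54.6 to 160 CPM in sham. Fabp3, a fatty acid-binding protein, rose 1.44-fold (adjusted p = 0.0203). Hcar1, the lactate receptor, and the growth factor Fgf1 fell by 0.58 and 0.55 on the log2 scale (adjusted p = 0.0498 and 0.0485, limma) and were each called in 3 of 18 fits that left out a library.

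The remaining groups had no called member in limma: neutrophil (13 tested, median log2 fold change -0.13, and 0.39 with edgeR), T and NK cell (9, -0.17), B and plasma cell (6, -0.089), dendritic cell (9, -0.21), mural cell (11, -0.20), cartilage and osteoblast (14, -0.12), Schwann cell and nerve (8, 0.17) and erythroid (8, -0.038) markers. The same held for osteoclast fusion and resorption (13, -0.021), glutamate and cystine transport (15, 0.062), itaconate, arginine and gluconeogenic enzymes (8, -0.022), glycolysis (20, 0.0039), neurotrophic and axon guidance factors (21, -0.023), immediate early response (24, -0.060), iron and heme (14, 0.045) and cytosolic ribosomal protein genes (79, -0.037, but -0.12 at 4 weeks and 0.071 at 12 weeks).

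Sham replicate 3 of 4 weeks set the direction of several of these medians. Without it the ribosomal protein median was 0.064, with 72 of 79 genes above 0 in place of 16. The median of the cartilage and osteoblast markers turned to 0.095, that of the B and plasma cell markers to 0.026 and that of the erythroid markers to 0.12. The medians of the T and NK cell markers (-0.096), mural cell markers (-0.13) and osteoclast genes (-0.082) kept their sign and moved by more than 1.5 times, as did that of the skeletal muscle markers (from 0.0077 to 0.15).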
